A study of Mus musculus with 3 samples.

Results

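This account covers 10 keratin genes in epithelial barcodes of healing mouse skin: Krt5, Krt14, Krt15, Krt1, Krt10, Krt6a, Krt6b, Krt16, Krt17 and Krt79, out of 32285 genes in the count tables. Full-thickness wounds were made in the shaved back skin of C57BL/6J male mice aged 7 to 12 weeks, and whole wound tissue was dissociated 3, 7 and 14 days later and captured as single cells without sorting. Tissue from 4 samples was pooled for a library according to the methods, all groups are of the same strain and wound, and each day is 1 library, so no comparison between days has a replicate and none is tested. A barcode (the tag of 1 droplet) was called epithelial when it held at least 3 unique molecular identifiers (UMIs, each standing for 1 captured transcript) of Dsp, Perp, Sfn and Epcam together, and under 1% of its UMIs from the collagen-cell genes Dcn and Col1a2. After the limits on depth and mitochondrial UMIs the rule gave 1 of 4452 barcodes for Day 3. For Day 7 it gave 57 of 21568 (0.264%), and for Day 14 it gave 776 of 14472 (5.36%). Day 3 therefore enters no comparison of levels.

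Keratins are the intermediate filament proteins of epithelia, and each filament is built from type I and type II chains in pairs. Krt5 (type II) and Krt14 (type I) pair in the basal layer of the epidermis, where cells divide, and Krt15 is a further type I chain of basal and hair follicle bulge cells. Krt1 and Krt10 replace them when cells leave the basal layer and differentiate. Krt6a, Krt6b, Krt16 and Krt17 are made in hair follicles and are induced in the epidermis at wound edges, and Krt79 marks the upper hair follicle and the duct of the sebaceous gland. In the mouse annotation (GENCODE vM21, GRCm38) the type I members lie together on chromosome 11, from Krt10 (99385254 to 99389364) to Krt17 (100256217 to 100261029), and the type II members on chromosome 15, from Krt6b (101676023 to 101680287) to Krt79 (101929332 to 101940324). All 10 are on the minus strand.

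The stretches before the starts of a basal and a differentiation keratin are shown because these 2 genes are among the 4 by which the barcodes are split further on. RefSeq promoters on GRCm38.p6 matched 4 of the 10 members (Krt5, Krt14, Krt10 and Krt79). The Krt14 entry began 1518 bases inside the annotated gene, so it is not shown. Each line gives the 250 bases before the start, 5′ to 3′ on the minus strand, at chr15:101712906-101713155 for Krt5 and chr11:99389365-99389614 for Krt10. Capitals mark matches on either strand to the TATA box letters TATAAA, their variant GATAAA, the AP-1 letters TGANTCA, the AP-2 letters GCCNNNGGC and the KLF letters CCACCC.
Krt5: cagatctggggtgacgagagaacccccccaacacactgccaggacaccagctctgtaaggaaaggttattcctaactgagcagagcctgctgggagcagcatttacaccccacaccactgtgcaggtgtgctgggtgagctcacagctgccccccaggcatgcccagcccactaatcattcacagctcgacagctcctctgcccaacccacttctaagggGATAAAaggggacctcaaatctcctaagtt
Krt10: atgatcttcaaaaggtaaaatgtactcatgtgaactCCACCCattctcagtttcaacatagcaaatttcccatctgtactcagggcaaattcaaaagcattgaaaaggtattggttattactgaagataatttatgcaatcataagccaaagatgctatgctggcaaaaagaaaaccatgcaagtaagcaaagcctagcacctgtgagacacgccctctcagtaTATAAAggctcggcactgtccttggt

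Krt10 held TATAAA from 26 to 21 bases before its start, and Krt5 held GATAAA from 30 to 25 bases before its start. Over the same 250 bases of all 32851 promoters, 12.4% held TATAAA and 8.79% held GATAAA. The KLF letters CCACCC were found in Krt10, from 214 to 209 bases before its start, and in 28.1% of all promoters. The AP-1 letters TGANTCA (6.75% of all promoters) and the AP-2 letters GCCNNNGGC (13.7%) were in neither window. These matches describe letters and are not read as binding sites.

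The epithelial call was checked on 10 epithelial genes that the rule did not use, such as Cdh1, Trp63 and Dsg3. Of the 10, 8 had a UMI in at least 50% of the epithelial barcodes on both days. This share alone does not mark epithelial cells, since 3 of 5 fibroblast genes (Col1a1, Col1a2 and Col3a1) also reached it on both days. The epithelial barcodes had a median of 5839 UMIs on Day 7 and 5828.5 on Day 14. The lowest was 1180 and 509 UMIs, the median number of genes was 2094 and 1905, and 26 barcodes of Day 14 but 0 of Day 7 had under 1000 UMIs. Gm42418 took 12.2% of the epithelial UMIs on Day 7 and 7.94% on Day 14, and with totals that leave out it and the 50 most abundant genes each keratin kept its direction and its side of the 2-fold limit. Immune transcripts (Ptprc, Tyrobp, Fcer1g, Cd74 and Lyz2) made up at least 1% of UMIs in 8 of the 57 and 95 of the 776 barcodes. Over 9 immune genes the share of epithelial barcodes with a UMI ranged from 0% to 45.6% on Day 7 and from 0.515% to 33.4% on Day 14, with a summed level of 3079 and 5582 UMIs per 1000000 (CPM). Cd207, Cd3e and Trdc were at 0 on Day 7. On Day 14 Cd207 had a UMI in 43 of the 776 barcodes, at 210 CPM, and Cd3e and Trdc in 4 each. In the myeloid gate of Day 14, described below, Cd207 was at 3.49 CPM. Over the 5 fibroblast genes the share with a UMI ranged from 15.8% to 98.2% on Day 7 and from 21.9% to 98.3% on Day 14. Their summed level was 4750 and 3137 CPM. On both days all 5 had a lower CPM in the epithelial barcodes than in the fibroblast gate described below, and all 10 epithelial genes a higher one. Dcn and Col1a2 are among the 5 and set both gates, so their summed contrast was fixed by the rules. Only Col1a1, Col3a1 and Lum took no part in them. The part of immune and fibroblast transcripts in the keratin values was not tested. A further 10 barcodes of Day 7 and 326 of Day 14 met the epithelial rule but exceeded 10% mitochondrial UMIs and were left out. Fewer than 10 UMIs of the 10 keratins were found in 10 of the Day 7 and 106 of the Day 14 epithelial barcodes, among them all 8 of the immune-rich ones of Day 7 and 64 of the 95 of Day 14. Barcodes with exactly 3 UMIs of the 4 chosen genes (5 on Day 7 and 34 on Day 14) held a median of 0 and 1 keratin UMIs, and those with 2, just outside the rule (28 and 129), held a median of 0 on both days. In all libraries together 62 to 154 barcode sequences of a library occurred in another library, and no epithelial one was epithelial in both.

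The make-up of the keratin UMIs differed between the days. Krt6a, Krt6b, Krt16 and Krt17 together made up 35.7% of the keratin UMIs of epithelial barcodes on Day 7 and 6.66% on Day 14. Krt1 and Krt10 together made up 23.1% and then 57.5%. The basal chains Krt5, Krt14 and Krt15 made up 39.9% and 33.9%. The 10 keratins as a whole were 2.45% of all epithelial UMIs on Day 7 and 1.90% on Day 14, and type I chains were 62.0% and 61.2% of keratin UMIs, so the share of type I chains differed by less than that of the wound-induced or differentiation chains.

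Levels below are CPM, from UMIs summed over the epithelial barcodes of a library. Brackets hold 95% intervals, exact Poisson for levels and exact conditional binomial for ratios, which cover counting error only and not the differences between barcodes, wounds or mice. UMIs are counted at transcript 3′ ends and are not scaled by length.

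Krt6a, the most abundant type II wound keratin here, was at 2680 CPM (2526 to 2840) on Day 7 against 87.5 CPM (79.6 to 95.9) on Day 14. This is a log2 ratio of Day 14 to Day 7 of -4.94 (-5.10 to -4.78), or 30.6-fold lower. It was found in 27 of 57 barcodes on Day 7, 20 of them with at least 10 UMIs, against 94 of 776 on Day 14, only 15 of them with at least 10. Krt6b, its close relative, was at 636 CPM (269 UMIs in 10 barcodes) on Day 7 and 0.966 CPM (5 UMIs in 2 barcodes) on Day 14. Its log2 ratio of -9.36 (-11.00 to -8.12) was the second lowest of the 3281 genes compared, which it entered through its Day 7 level alone, so a low rank was built in. The Day 7 value rested on few cells, since 1 barcode held 40.5% of the Krt6b UMIs and 5 held 94.1%.

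Krt16, the type I partner of Krt6, was at 3162 CPM (2995 to 3336) on Day 7 against 273 CPM (259 to 288) on Day 14, a log2 ratio of -3.53 (-3.64 to -3.42). One Day 7 barcode held 496 of the 1338 UMIs, and without it the Day 7 level was 2101 CPM and the log2 ratio -2.94. Krt17 stood apart from the other wound-induced chains. It was at 2271 CPM (2130 to 2419) on Day 7 against 903 CPM (878 to 930) on Day 14, a log2 ratio of -1.33 (-1.43 to -1.23). The ratio of Krt17 to Krt16 UMIs accordingly went from 0.718 (0.660 to 0.781) to 3.31 (3.11 to 3.51), and that of Krt6a to Krt16 from 0.848 (0.782 to 0.918) to 0.320 (0.287 to 0.356). Over all epithelial barcodes the order of the log2 ratios, from the lowest, was Krt6b, Krt6a, Krt16 and Krt17. Neighbouring counting intervals in that order did not overlap, but they do not cover differences between barcodes or mice. Among the differentiation-keratin barcodes described below the order differed, with Krt16 at -3.57 and Krt6a at -2.67, both resting on 1 Day 7 barcode. No general order of decline is read.

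Among the basal chains, Krt14 was the most abundant keratin on Day 7, at 6683 CPM (6438 to 6933), and was at 3444 CPM (3393 to 3495) on Day 14, a log2 ratio of -0.96 (-1.01 to -0.90). Krt5 was at 2762 CPM (2606 to 2925) and 1785 CPM (1749 to 1822), a log2 ratio of -0.63 (-0.72 to -0.54). Krt15 went the other way, from 347 CPM (293 to 408) to 1205 CPM (1175 to 1235), a log2 ratio of 1.79 (1.56 to 2.04). It was found in 14 of 57 barcodes on Day 7, 4 of them with at least 10 UMIs, and in 408 of 776 on Day 14, 192 of them with at least 10. Per UMI of Krt14, Krt15 rose from 0.0520 (0.0437 to 0.0614) to 0.350 (0.340 to 0.360).

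Krt10 was at 2729 CPM (2574 to 2891) on Day 7 and, as the most abundant keratin, at 5795 CPM (5730 to 5861) on Day 14, a log2 ratio of 1.09 (1.00 to 1.17). Krt1 was at 2932 CPM (2772 to 3100) and 5123 CPM (5062 to 5186), a log2 ratio of 0.81 (0.72 to 0.89). On Day 7 both rested on few barcodes: 5 of the 57 held 87.1% of the Krt10 and 75.7% of the Krt1 UMIs, against 6.93% and 10.1% for the top 5 of 776 on Day 14. Krt10 had at least 10 UMIs in 15.8% of epithelial barcodes on Day 7 and 39.4% on Day 14. The shares with any Krt10 UMI were 24.6% and 59.4%, beside 13.9% and 37.2% in fibroblast-gate barcodes, which had median depths of 10329 and 10294.5 UMIs, so these are not read as a difference. Krt79 was at 312 CPM (261 to 370) in 12 barcodes and at 384 CPM (367 to 401) in 96 barcodes, a log2 ratio of 0.30 (0.04 to 0.56). Without the Day 7 barcode that held 33.3% of its UMIs the log2 ratio was 0.84.

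**Figure D1:**
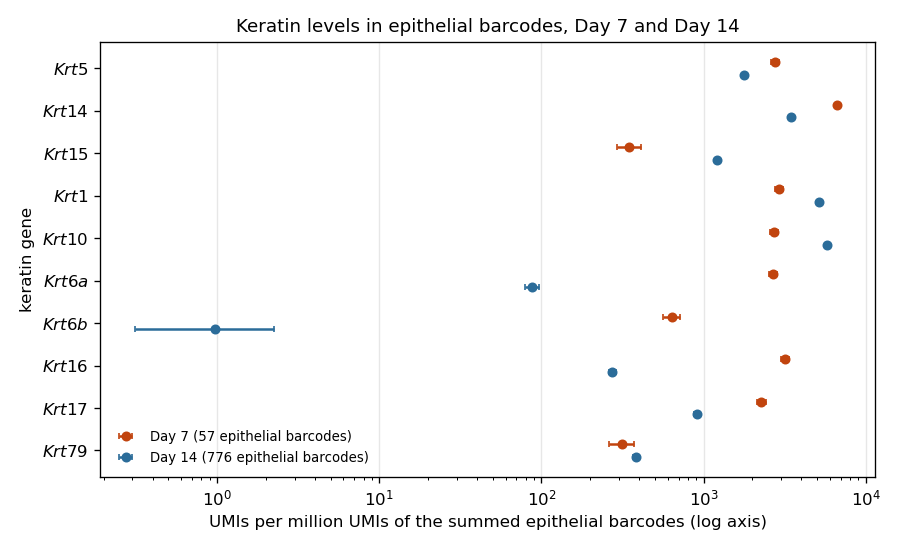
Level of each keratin in the summed epithelial barcodes of Day 7 (orange, 57 barcodes) and Day 14 (blue, 776 barcodes), as CPM on a log axis, with exact Poisson 95% intervals. Krt6a, Krt6b, Krt16 and Krt17 sit to the left on Day 14, Krt6b at 0.966 CPM, while Krt15, Krt1 and Krt10 sit to the right.

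Counted with a 2-fold limit, 2 of the 10 keratins (Krt15 and Krt10) were higher on Day 14 and 4 (Krt6a, Krt6b, Krt16 and Krt17) were lower, and 4 were under 2-fold. Of the 3281 genes with at least 50 CPM on either day and at least 10 UMIs in all, 6.13% were at least 2-fold higher and 9.17% at least 2-fold lower. All 10 keratins passed these limits, Krt6b through Day 7 alone, so its call and its rank could go only one way. The median log2 ratio was -0.79 over the keratins and -0.07 over all genes compared. From the lowest ratio upward, Krt6b, Krt6a, Krt16 and Krt17 ranked 2, 9, 20 and 178. Scaling by the median of ratios shifts every log2 ratio up by 0.20, which turns the split of genes past 2-fold from 201 higher and 301 lower to 305 higher and 214 lower. All 10 keratins keep their direction under it. Krt14 passed 2-fold lower under 5 of 14 alternatives, with log2 ratios down to -1.17. Krt10 fell under 2-fold in 3 of them, since its log2 ratio was 0.91 with Dcn and Col1a2 under 0.5% of UMIs, 0.86 with at most 5% mitochondrial UMIs, and 0.88 without barcodes over 3 times the median UMIs.

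Levels summed over barcodes cannot tell a change in how much a cell holds from a change in how many cells of a kind were captured. The barcodes were therefore split by the share of Krt1 and Krt10 among the UMIs of Krt5, Krt14, Krt1 and Krt10. On Day 7, 40 barcodes lay below a share of 0.5 (called basal-keratin barcodes here) and 10 at or above it (differentiation-keratin barcodes), with 0 between 0.4 and 0.6. On Day 14 there were 382 and 348, with 15 between 0.4 and 0.6. The differentiation-keratin share was 10 of 50 barcodes on Day 7 (Clopper-Pearson 95% interval 10.0 to 33.7%) and 47.7% of 730 on Day 14 (44.0 to 51.4%). These intervals do not overlap, but each day is 1 library. No UMI of the 4 genes was found in the remaining 7 and 46 barcodes.

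**Figure D2:**
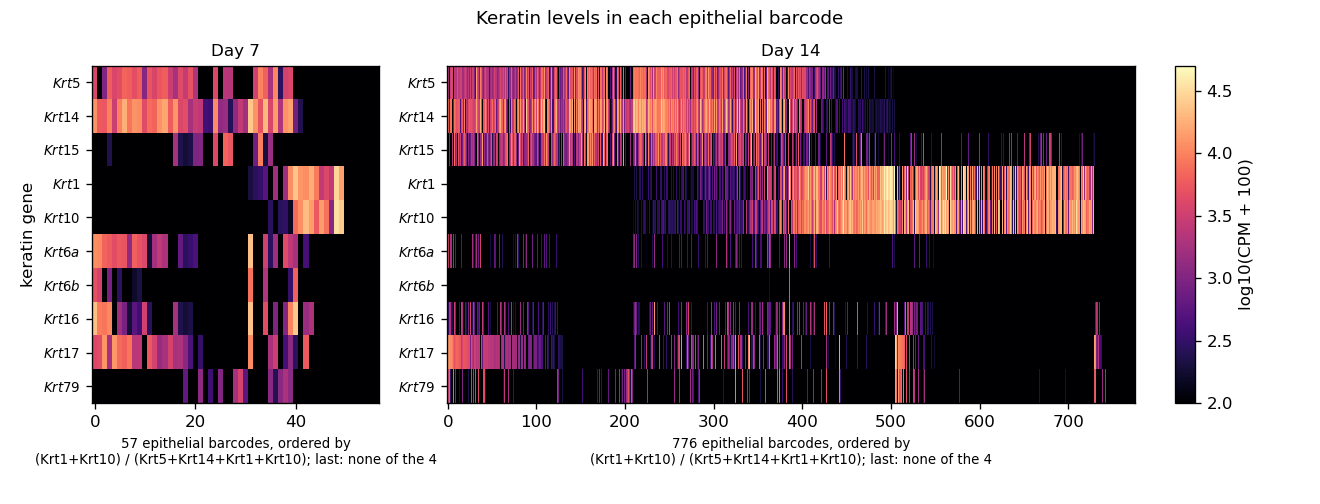
Level of the 10 keratins (rows) in every epithelial barcode (columns) of Day 7 and Day 14, as log10(CPM + 100), with barcodes ordered by their share of Krt1 and Krt10 among the 4 keratins named under the plot and, at equal shares, by their wound-induced keratins, so the blocks of Krt17 at the ends of the order come from the sorting. On Day 7 Krt6a, Krt16 and Krt17 are found in 27, 23 and 27 of the 57 barcodes. The 5 barcodes richest in each hold 64.6%, 83.9% and 51.6% of its UMIs. On Day 14 the barcodes divide into 382 with more Krt5 and Krt14 and 348 with at least as much Krt1 and Krt10.

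The split itself uses Krt5, Krt14, Krt1 and Krt10, so their contrast between the 2 states is no result, but their levels on the 2 days within a state can be set side by side. Within basal-keratin barcodes Krt5 was at 3572 CPM on Day 7 and 3552 on Day 14, a log2 ratio of -0.01 (-0.10 to 0.08), and Krt14 at 8625 and 7020, a log2 ratio of -0.30 (-0.35 to -0.24). Within differentiation-keratin barcodes Krt10 was at 16861 and 11634 CPM, a log2 ratio of -0.54 (-0.62 to -0.45), and Krt1 at 14750 and 10268, a log2 ratio of -0.52 (-0.61 to -0.43). Without the Day 7 barcode richest in each, these were -0.29 for Krt10 and -0.27 for Krt1. The state is defined by these genes and holds 10 barcodes on Day 7, so the values describe the split and show no cause of the levels over all barcodes.

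The wound-induced chains took no part in the split. Within basal-keratin barcodes Krt6a was at 3425 and 155 CPM (log2 ratio -4.47, -4.64 to -4.30), Krt16 at 3544 and 346 CPM (-3.36, -3.49 to -3.23) and Krt17 at 2762 and 1286 CPM (-1.10, -1.21 to -0.99). Without the Day 7 barcode richest in each chain these were -4.20, -2.66 and -0.98, so Krt17 was then under 2-fold. Within differentiation-keratin barcodes Krt16 was at 2610 and 219 CPM, a log2 ratio of -3.57 (-3.82 to -3.32), and Krt17 at 836 and 532 CPM, -0.65 (-1.03 to -0.24). Both rest on single barcodes of the 10. Of the 178 Krt16 UMIs of Day 7, 146 came from 1 barcode, which also held all 36 Krt6b and 10 of the 13 Krt6a UMIs, and without it the log2 ratio of Krt16 was -1.23 and that of Krt6a -0.69. Of the 57 Krt17 UMIs, 56 came from another barcode, and without it Krt17 was at 17.2 CPM on 1 UMI and the direction turned, with a log2 ratio of 4.95. No direction is read for Krt17 or Krt6b in this state. Krt15 within basal-keratin barcodes was at 449 and 2265 CPM, a log2 ratio of 2.33 (2.10 to 2.58), and was found in 14 of 40 and 317 of 382 of them. Krt79 within the same barcodes was at 403 and 439 CPM, a log2 ratio of 0.12 (-0.14 to 0.39). One Day 7 barcode held 44 of its 132 UMIs, and without it the log2 ratio was 0.65. With at least 10 UMIs of the 4 genes asked of a barcode, the corresponding log2 ratios were -4.42 for Krt6a, -3.34 for Krt16, -1.15 for Krt17, 2.34 for Krt15, and -0.38 for Krt10 within its own state.

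**Figure D3:**
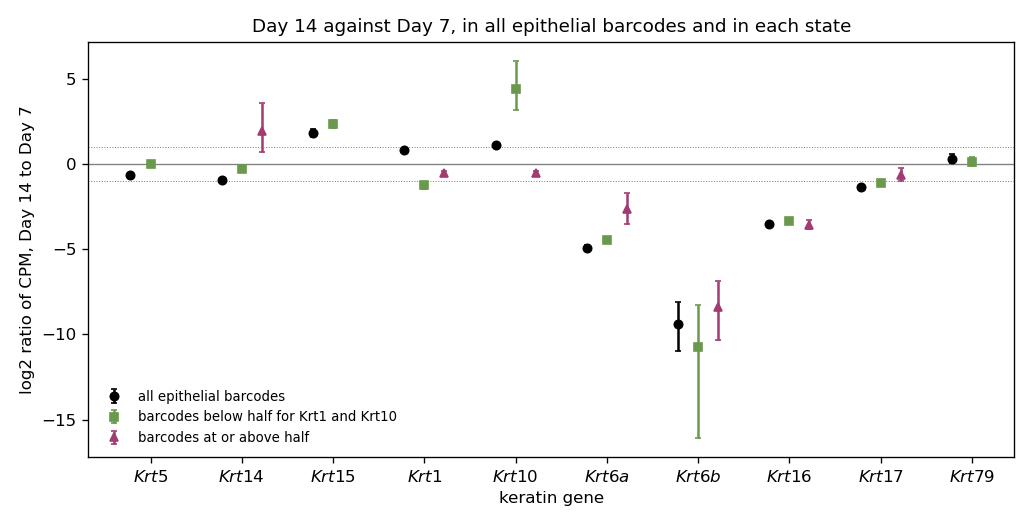
Log2 ratio of Day 14 to Day 7 for each keratin over all epithelial barcodes (black circles), within barcodes below a share of 0.5 for Krt1 and Krt10 (green squares) and within those at or above it (purple triangles), with 95% counting intervals; dotted lines mark 2-fold, and a ratio against 0 UMIs is left out. Krt6a and Krt16 lie below the lower dotted line in both states, the purple values of Krt6a, Krt6b, Krt16 and Krt17 resting on 1 Day 7 barcode each, while Krt1 and Krt10 lie above 0 over all barcodes and at -0.52 and -0.54 in the purple group; the ratios of Krt1 and Krt10 in the green group and of Krt14 in the purple group are of genes that the split itself holds low there.

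Single barcodes show how the chains were combined on Day 7. Of the 57 epithelial barcodes, 31 had no wound-induced chain with at least 10 UMIs, 6 had 1, 11 had 2, 6 had 3 and 3 had all 4. On Day 14 the counts were 641 with none, 122 with 1, 12 with 2, 1 with 3 and 0 with all 4 of 776. No Day 14 barcode held more than 4 Krt6b UMIs, so the count with all 4 chains could only be 0. At least 10 UMIs were reached by Krt17 in 102 Day 14 barcodes, Krt16 in 32 and Krt6a in 15. All 20 Day 7 barcodes with at least 10 Krt6a UMIs also held Krt14, 17 held Krt5, 18 held Krt17 and 16 held Krt16. Krt10 was held by 3 of the 20 and Krt1 by 6. Over all 57 barcodes, 42 held Krt14, 31 Krt5, 27 Krt17, 23 Krt16, 14 Krt10 and 17 Krt1. The barcode richest in UMIs on Day 7, with 22452, held 277 UMIs of Krt14, 254 of Krt6a, 109 of Krt6b, 496 of Krt16 and 87 of Krt17, and 0 of Krt1 and Krt10. Another barcode, with 18273 UMIs, held 270 of Krt14, 187 of Krt16 and 203 of Krt1 but 1 of Krt10, which makes it most of the 235 Krt1 UMIs found in basal-keratin barcodes. A further one, with 5830 UMIs, held 134 of Krt1, 42 of Krt10 and 146 of Krt16 with 4 of Krt14. In these single barcodes wound-induced chains stood beside either kind of partner. Whether any of them held more than 1 cell was not tested. The 4 Day 7 barcodes with at least 10 Krt15 UMIs all held Krt5 and Krt14 and held 0 UMIs of each wound-induced chain. Over all 57 barcodes Krt6a was found in 27 and Krt6b in 10, so many others also lacked them. Of the 20 barcodes with at least 10 Krt17 UMIs 4 held Krt15, and of the 20 with at least 10 Krt6a UMIs 2 did. No exclusion is read from 4 barcodes.

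On Day 14, Krt17 was found more often with basal than with differentiation chains. Of the 102 barcodes with at least 10 Krt17 UMIs, 67.6% had at least 10 of Krt14, 36.3% at least 10 of Krt15, 23.5% at least 10 of Krt79, 12.7% at least 10 of Krt10 and 4.90% at least 10 of Krt6a. The 32 barcodes with at least 10 Krt16 UMIs were more mixed: 68.8% had at least 10 of Krt14 and 53.1% at least 10 of Krt10. Of the 44 barcodes with at least 10 Krt79 UMIs, 54.5% had at least 10 of Krt17, 52.3% at least 10 of Krt14 and 11.4% at least 10 of Krt5, which usually goes with Krt14. For comparison, 76.5% of the 306 barcodes with at least 10 Krt14 UMIs had at least 10 of Krt5. The Krt79 barcodes with Krt17 and those with Krt14 were in part different ones. One with 11132 UMIs held 160 of Krt79, 313 of Krt17 and 0 of Krt14. Another with 17278 UMIs held 72 of Krt79, 47 of Krt14 and 0 of Krt17. Over all 776 Day 14 barcodes, at least 10 UMIs were found in 39.4% for Krt14 and 39.4% for Krt10. The shares were 33.1% for Krt5, 24.7% for Krt15, 13.1% for Krt17, 5.67% for Krt79 and 1.93% for Krt6a. Deeper barcodes reach 10 UMIs more easily, which was not corrected for here.

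To compare pairs at 1 depth, each epithelial barcode was thinned to 1000 UMIs, which kept all 57 of Day 7 and left out 26 of the 776 of Day 14. The share of barcodes with both genes is given beside the product of the 2 single shares, which is a description and no test. Values are of 1 random thinning, and where 20 further thinnings matter their range is given. On Day 14 the partners Krt1 and Krt10 were found together in 39.7% of barcodes (36.2 to 43.3, product 19.9%), and Krt5 and Krt14 also in 39.7% (36.2 to 43.3, product 22.5%). Unthinned, these were 47.0% and 48.6%. Krt15 was found with Krt14 in 32.5% (29.2 to 36.0, product 19.7%, unthinned 43.8%). This value is high for a thinning, since 20 others gave 30 to 32.1%. Krt14 and Krt10, which belong to different layers, were found together in 12.0% (9.76 to 14.5), below the product of 22.8%. Over 20 thinnings this was 9.47 to 12.0%, and unthinned 27.3%.

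Among the wound-induced pairs, Krt6a and Krt16 were found together in 21.1% of the Day 7 barcodes (11.4 to 33.9, product 9.48%, unthinned 36.8%) and in 0.800% of the Day 14 barcodes (0.294 to 1.73, product 0.569%, unthinned 6.31%). Over 20 thinnings this pair was in 15.8 to 24.6% on Day 7 and 0.8 to 2.0% on Day 14. All 7 thinned Day 7 barcodes with Krt6b also held Krt6a, whereas 31.8% of those with Krt6a held Krt6b. Krt14 and Krt6a were found together in 36.8% on Day 7 (24.4 to 50.7, product 25.7%) and in 4.4% on Day 14 (3.05 to 6.12, product 2.60%). On Day 14, 82.5% of the 40 barcodes with Krt6a held Krt14. Krt16 and Krt17 were found together in 12.3% on Day 7 (5.08 to 23.7, product 9.05%, unthinned 35.1%) and 3.73% on Day 14 (2.49 to 5.35, product 2.12%, unthinned 12.4%). The Day 7 value is low for a thinning, since 20 others gave 15.8 to 22.8%, against 3.47 to 4.93% on Day 14. Krt79 was found with Krt17 in 1.75% on Day 7 (0.0444 to 9.39, product 5.82%), where 9 barcodes held Krt79, and in 4.4% on Day 14 (3.05 to 6.12, product 1.62%). Unthinned the order was the other way, with 10.5% (6 of 57) and 7.47%, so no difference between the days is read for this pair. Krt79 and Krt10 were found together in 2.93% on Day 14 (1.85 to 4.41, product 3.81%).

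**Figure D4:**
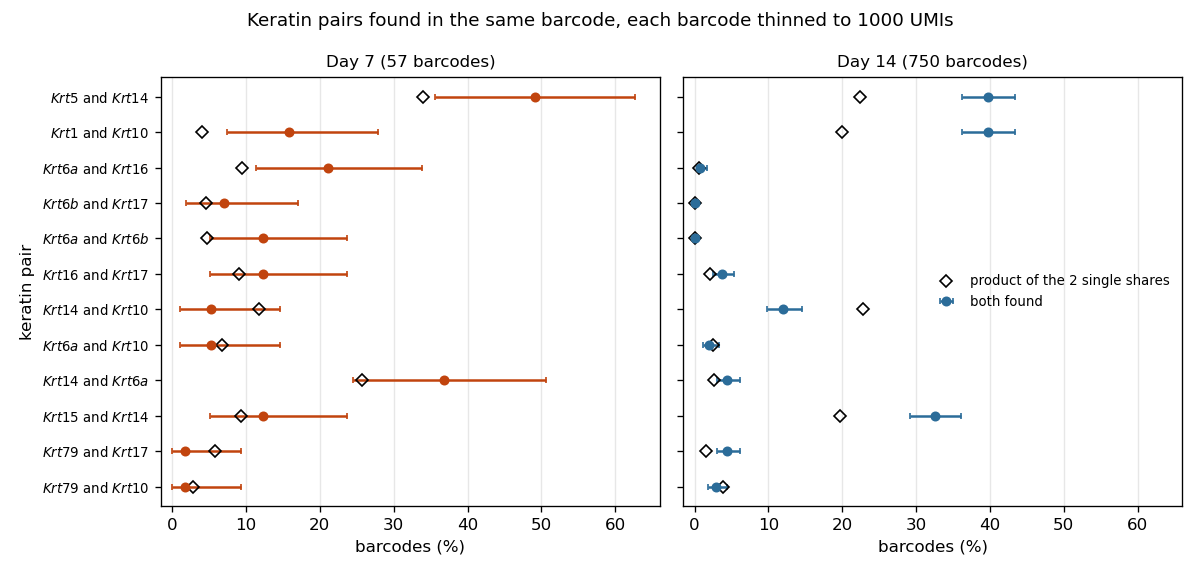
Share of epithelial barcodes in which both keratins of a pair were found after thinning to 1000 UMIs (filled circles, with Clopper-Pearson 95% intervals) and the product of the 2 single shares (open diamonds), for 57 barcodes of Day 7 and 750 of Day 14. On Day 14 Krt5 and Krt14, Krt1 and Krt10, and Krt15 and Krt14 lie right of their diamonds and Krt14 and Krt10 left of theirs, and Krt6a with Krt16 goes from 21.1% to 0.800%.

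Other genes of keratinocyte biology were counted from lists chosen with earlier results of these data known. Of 10 basal layer genes, which hold adhesion genes and the transcription factor Trp63, 9 passed the limits on level, 0 were at least 2-fold higher on Day 14 (6.13% over all genes) and 6 were lower (9.17% over all genes). Of the 6, Itgb4, Itga3, Lamb3 and Lama3 passed through Day 7 alone, so their calls could go only one way, and 2 passed on both days. The most abundant, by the higher of the 2 days, were Col17a1, a hemidesmosome collagen (773 CPM on Day 7 and 563 on Day 14, log2 ratio -0.46), the integrins Itga6 (643 and 284, -1.18) and Itgb1 (584 and 171, -1.77), and the plectin relative Dst (326 and 419, 0.36). Of 13 suprabasal genes, 12 passed, 2 were higher, Ovol1 of them through Day 14 alone, and 0 lower. Among the most abundant, Krtdap was at 3601 and 8114 CPM (log2 ratio 1.17), the galectin Lgals7 at 4603 and 4919 (0.10), Dmkn at 1954 and 2608 (0.42) and Sbsn at 1148 and 1676 (0.55).

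Of 15 wound-edge genes, 10 passed, 2 were higher on Day 14 (6.13% over all genes) and 5 lower (9.17% over all genes). Gjb2, Itga5 and Mmp13 passed through Day 7 alone, and of those that passed on both days 2 were higher and 2 lower. Sprr1b, a cornified envelope precursor, was at 581 and 53.7 CPM (log2 ratio -3.44, -3.69 to -3.18) and the collagenase Mmp13 at 378 and 0.579 CPM, on 160 and 3 UMIs (-9.35, -11.64 to -7.78). Sprr1a, of the same family as Sprr1b, was at 579 and 911 CPM (0.65) and Serpinb2 at 293 and 728 CPM (1.31). Of 13 hair follicle and sebaceous genes, 8 passed, 2 were higher, Defb6 of them through Day 14 alone, and 3 lower, beside the same 6.13% and 9.17%, with Fabp5 at 7287 and 3038 CPM (-1.26), the lipid desaturase Scd1 at 1056 and 635 (-0.73), Cst6 at 373 and 858 (1.20) and Elovl6 at 711 and 324 (-1.13). Of 6 cell cycle genes 2 passed, both through Day 14 alone, so no direction is read from them: Top2a was at 28.4 and 68.6 CPM (1.27) and Mki67 at 40.2 and 63.2 (0.65). Between the states of Day 14, the 9 basal and 12 suprabasal genes that passed between the days were compared. In differentiation-keratin barcodes 8 basal genes were at least 2-fold lower and 0 higher, and 7 suprabasal genes were higher and 0 lower. Over the 3174 genes compared between these states, 9.99% were higher and 10.9% lower. Itgb4, Itga3, Lamb3, Lama3, Dsc1 and Ivl reached 50 CPM in 1 state only, so their calls could go only one way. Cdh3 and Grhl3 also reached 50 CPM in 1 state but had not passed between the days, so they are not counted. The split was made on genes of the same cells, so these counts describe it and do not test it. Krtdap was at 854 CPM in basal-keratin and 15663 CPM in differentiation-keratin barcodes, and Itga6 at 482 and 115 CPM.

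Of the 43 other keratin genes, 5 had at least 50 CPM in the epithelial barcodes of either day, and 11 had 0 UMIs on both. Krt77, a type II chain, was at 1876 CPM on Day 7 in 10 barcodes and 2268 CPM on Day 14 in 342 barcodes, a log2 ratio of 0.27 (0.17 to 0.38). One Day 7 barcode held 38.2% of its UMIs, and without it the Day 7 level was 1188 CPM and the log2 ratio 0.93 (0.80 to 1.07). Krt80 was at 56.7 and 137 CPM, a log2 ratio of 1.27 (0.68 to 1.92), on 24 UMIs on Day 7, and 1.91 (1.18 to 2.76) without the barcode that held 9 of them. The inner root sheath chains Krt27, Krt71 and Krt25 reached 169, 169 and 67 CPM on Day 14, but 1 barcode held 96.5%, 91.5% and 76.9% of their UMIs, so these are not values of the tissue.

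The genes whose level varied most like 4 of the keratins were found by Pearson's r of log2(CPM + 100) over the 750 Day 14 barcodes with at least 1000 UMIs, among 5867 genes with a UMI in at least 10% of them. These barcodes share 1 library, and the values are descriptions. Beside Krt10 stood Calm4 (r = 0.84), the desmosomal cadherin Dsg1a (0.80), Fam25c (0.76), Mt4 (0.76) and Sbsn (0.74), and over the 57 Day 7 barcodes these were 0.85, 0.85, 0.75, 0.61 and 0.71. Krt1 had r = 0.92 with Krt10 on Day 14 and 0.89 on Day 7. Beside Krt14 stood Col17a1 (0.65), Itga6 (0.60), Fcgbp (0.55), S100a6 (0.52) and Apoe (0.51), with 0.52, 0.53, 0.13, 0.33 and 0.29 on Day 7. Among the genes beside Krt79 were Cst6 (0.38), Sdr16c6 (0.38) and Mgst1 (0.37), with -0.12, 0.45 and 0.70 on Day 7. Krt79 had a UMI in only 96 of the 776 Day 14 and 12 of the 57 Day 7 barcodes, so these values are not read. For Krt16 no r was above 0.32 (Plet1), and the 5 highest (Plet1, Fosl1, Sfn, Aqp3 and Mast4, down to 0.24) are too weak in sparse counts to be read.

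Among the keratins, Krt6a and Krt16 had r = 0.73 on Day 7 and 0.24 on Day 14, and Krt6a and Krt17 had r = 0.73 and 0.21. Krt15 and Krt14 had 0.18 on Day 7, where 5 barcodes held 86.4% of the 147 Krt15 UMIs, and 0.63 on Day 14. Krt79 and Krt17 had -0.14 and 0.40. Krt6a had 453 UMIs over the Day 14 barcodes, and neither weak value is a finding.

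Keratin UMIs were also found outside the epithelial barcodes, at far lower levels. The epithelial barcodes held 75.2% of all UMIs of the 10 keratins in the Day 7 library and 77.1% in the Day 14 library. Barcodes of the fibroblast gate (Dcn and Col1a2 at least 1% of UMIs) held 17.1% and 15%. Their summed keratin level was 30.3 CPM on Day 7 and 233 CPM on Day 14, against 24514 and 19001 CPM in epithelial barcodes. Barcodes of the myeloid gate (Tyrobp, Fcer1g and Lyz2) had 11 CPM on Day 7 and 102 CPM on Day 14. Among fibroblast-gate barcodes 8 on Day 7 and 153 on Day 14 held at least 10 keratin UMIs, with a median of 18 and 15 UMIs of the 4 genes of the epithelial rule, which asks for 3. Whether these droplets held 2 cells was not tested. Without them the fibroblast-gate levels were 18.9 and 81.7 CPM.

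The make-up of the keratin UMIs in the myeloid gate of Day 14 differed from that of the epithelial barcodes for most chains. Krt10 was 37.1% of the keratin UMIs there (33.7 to 40.6), Krt1 31.4% (28.2 to 34.8) and Krt14 14.1% (11.7 to 16.7), against 30.5%, 26.96% and 18.1% in epithelial barcodes. Krt15 was 3.16% (2.06 to 4.64), Krt17 2.28% (1.36 to 3.58) and Krt79 0.506% (0.138 to 1.29), against 6.34%, 4.75% and 2.02%. Krt16 went the other way, at 2.53% (1.55 to 3.88) against 1.44%. On Day 7 Krt14 was 36.9% of the myeloid keratin UMIs (27.6 to 47.0) and Krt10 24.3% (16.4 to 33.7), against 27.3% and 11.1%, on 103 UMIs.

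Krt10 and Krt1 were also compared as a pair. Of the Krt10 and Krt1 UMIs together, Krt10 was 48.2% (46.2 to 50.2) in epithelial barcodes of Day 7, but 85.0% (83.1 to 86.8) in fibroblast-gate barcodes, and 96.3% (95.1 to 97.3), on 1170 and 45 UMIs, in those with under 10 keratin UMIs. It was also above the epithelial share in the myeloid gate of Day 7, at 75.8% (57.7 to 88.9) on 25 UMIs of Krt10 and 8 of Krt1, and in barcodes of no gate, at 77.5% (68.6 to 84.9), and all 12 UMIs of the pair in the pericyte gate were Krt10. On Day 14 it was 53.1% (52.7 to 53.5) in epithelial barcodes, 54.2% (49.9 to 58.4) in the myeloid gate, 63.4% (62.5 to 64.2) in the fibroblast gate, and 75% (73.8 to 76.2) in fibroblast-gate barcodes with under 10 keratin UMIs. In epithelial barcodes of Day 14 with under 10 keratin UMIs it was 68.4% (56.7 to 78.6), on 52 and 24 UMIs. This interval overlaps that of fibroblast-gate barcodes with under 10 keratin UMIs. It also overlaps those of such barcodes in the myeloid gate (50.3 to 59.0) and in no gate (51.2 to 57.5), so it singles out none of them. In the fibroblast-gate barcodes with under 10 keratin UMIs Krt10 was at 15 CPM on Day 7 and 48.3 CPM on Day 14, and Krt1 at 0.579 and 16.1 CPM. After thinning every barcode to 500 UMIs, Krt10 was found in 0.776% of fibroblast-gate barcodes of Day 7 (0.588 to 1.00) and in 0.0791% of myeloid-gate barcodes (0.00958 to 0.285), while their median depths were 10329 and 3359 UMIs and the unthinned shares 13.9% and 0.989%. On Day 14 the thinned shares were 3.66% (3.26 to 4.10) and 2.09% (1.47 to 2.88), and the unthinned ones 37.2% and 15.4%. The difference between these gates and the epithelial barcodes on Day 7 is beyond counting error, and its source was not tested.

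**Figure D5:**
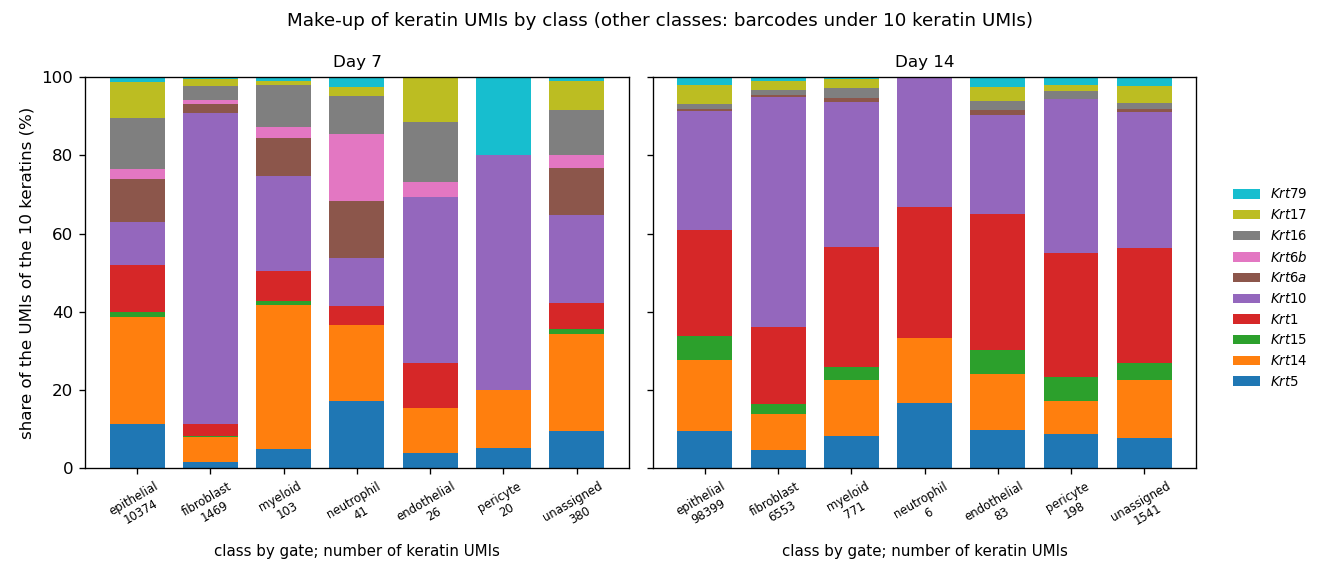
Make-up of the UMIs of the 10 keratins in barcodes of each gate on Day 7 and Day 14, as a share of their sum, with the number of keratin UMIs under each bar; for classes other than epithelial only barcodes with under 10 keratin UMIs are counted. Krt10 (purple) takes 79.6% of the bar of the Day 7 fibroblast gate against 11.1% of the epithelial bar, and classes with few UMIs, such as the 6 of the Day 14 neutrophil gate, cannot be read.

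Reads of near-identical chains can be split or lost in counting. Of the 90 ordered pairs of members, 6 shared any run of 50 bases between the last 500 bases of 1 annotated transcript and a transcript of the other, and all 6 were among Krt14, Krt16 and Krt17, at most 9.53% of the runs (Krt14 and Krt17). Krt6a and Krt6b shared none there. Krt5, Krt10, Krt6a and Krt6b overlap annotated genes on the other strand (Gm11940 for Krt10), and no member overlaps a gene on its own strand.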

How the data were processed

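Single-cell 3′ RNA sequencing (Chromium v3.1) of 3 wound libraries was analysed, 1 per day. The deposited tables hold raw UMI counts per gene and barcode, which the authors made with Cell Ranger 6.0.0 on mm10, per the submitters' processing notes. The annotation they used is not given in the sources used here. The libraries held 5158, 22924 and 16611 barcodes and 38133650, 120940799 and 112713257 UMIs. Ensembl IDs matched a symbol for 32158 of 32285 genes.

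Barcodes with at least 500 UMIs, at least 200 genes and at most 10% mitochondrial UMIs were kept and put in classes by marker gates, without clustering, so classes can differ from those of the study. No doublet caller was run. The limit on Dcn and Col1a2 was part of the epithelial rule, while limits on immune UMIs and on size were only alternatives. A droplet with more than 1 epithelial cell can pass the rule. Counts were summed per library and class and given as CPM with exact Poisson intervals. Ratios have exact conditional binomial and shares Clopper-Pearson 95% intervals, covering counting error only. With 1 library per day no test was run. The scripts (Python 3.11.15, numpy 2.4.6) were tested on simulated data. The members and gene lists were chosen with earlier results of these data known. Named genes were the members, other keratins with at least 50 CPM, the 4 most abundant genes of each list by the higher of the 2 days, and the 5 genes most correlated with Krt10, Krt14, Krt16 and Krt79. Some of the genes this rule names for Krt79 are not reported here. Alternatives in the gate, scaling, thinning and limits were tried, and those without few-keratin barcodes, without the top Day 7 barcode of a gene, with 10 UMIs for the split, with 20 thinnings, and for the genes past 2-fold were chosen after seeing the data.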

Additional observations from a re-analysis of the deposited data

Results flagged for a closer look

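The Day 3 library, which enters no comparison, held keratin UMIs above what a count of 0 allows. Its 1 epithelial barcode, of 6463 UMIs, held 225 UMIs of Krt14, 179 of Krt6a, 189 of Krt6b, 293 of Krt16 and 18 of Krt17, and 0 of Krt5, Krt15, Krt1, Krt10 and Krt79. The 10 keratins were 14.0% of its UMIs and the wound-induced chains 75.1% of its keratin UMIs. It is 1 barcode and stands for no group.

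Outside that barcode the Day 3 library held 166 UMIs of Krt10 in 132 barcodes, against 8 of Krt14, 7 of Krt16, 6 of Krt6a, 4 of Krt6b and 1 of Krt1. In fibroblast-gate barcodes, with a median of 42619 UMIs, there were 146 UMIs of Krt10 and 1 of Krt1, so Krt10 was 99.3% (96.3 to 99.98) of the pair there, at 7.53 CPM. Their source was not tested.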

How the results depend on the processing

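No paired analysis was possible because each day is 1 library. Every keratin kept its direction under all 14 alternatives. Krt15, Krt6a, Krt6b, Krt16, Krt17 and Krt5 also kept their side of the 2-fold limit under all of them, with log2 ratios from 1.43 to 2.72, -5.15 to -4.27, -9.51 to -6.19, -3.63 to -2.65, -1.61 to -1.09 and -0.88 to -0.11. Krt14 passed 2-fold under 5 alternatives (down to -1.17), Krt1 under 2 (up to 1.14), Krt79 under 1 (1.09, at most 5% mitochondrial UMIs), and Krt10 fell under it in 3 (down to 0.86). The number of keratins past 2-fold stayed between 5 and 7. Without a limit on CPM 3491 of 12050 genes were past 2-fold, since genes of few UMIs then enter. The epithelial share of Day 14 keratin UMIs was 77.3%, 76.8% and 75.5% with a minimum of 2, 5 and 10 gate UMIs, 75.6% and 79.6% with collagen limits of 0.5% and 2%, 64.8% with at most 5% and 81.0% with any share of mitochondrial UMIs, 74.5% without barcodes rich in immune UMIs and 72.4% without the largest barcodes. The Day 7 share, 75.2% in the main setting, was counted as moved under 5 alternatives and as the same under 4. These shares follow from which barcodes each rule admits. With 57 Day 7 barcodes, the intervals do not cover variation between barcodes or mice. Of 312 co-detection shares under alternatives (12 pairs on 2 days), 65 moved beyond their counting interval. Krt6a with Krt16 on Day 14 ranged from 0.267% to 2.52%, with 1.87% and 1.78% at minima of 5 and 10 gate UMIs, and on Day 7 from 13.3% to 29.2%. Krt16 with Krt17 on Day 7 ranged from 8.77% to 27.1%, and Krt5 with Krt14 on Day 14 from 30.5% to 46.0%, moving in 8 of 13. Each alternative also draws its own thinning.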

Other observations

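The gene most like Krt17 over the 750 Day 14 epithelial barcodes, chosen after its values were seen, was Sox9, a hair follicle transcription factor, with r = 0.63. Over the 57 Day 7 barcodes r was 0.15. The barcodes of a day share 1 library, so these values are descriptions.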
